A study of Rattus norvegicus with 12 samples.

Results

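In the lumbar spinal cord of rats, 9 libraries taken after spinal cord injury (SCI), 3 each on days 3, 7 and 14, were set against 3 libraries from sham-operated cord labelled day 0. The comparison used the 12 libraries of the series, each one labelled RNA-seq of segments L3-5, and it weighted the 3 days equally. The question was which transcripts differed from sham on all 3 days after injury alike. The labels give neither the kind nor the spinal level of the injury, nor the strain, sex or age of the rats. No sham library was labelled day 3, 7 or 14, so time since surgery and injury cannot be told apart. Whether replicates are separate animals is not labelled either. The p-values describe only how these libraries vary, and that variation may be technical.

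After injury, damaged and deafferented cord tissue is known to activate astrocytes and microglia, to admit blood-borne myeloid cells and to remodel vessels and matrix. Transcription factors of the C/EBP, STAT and AP-1 families are known relays between injury signals, such as cytokines of the interleukin 6 family, and the genes of that response. Neurons that lose input are known to alter synaptic and channel genes over the same weeks. In whole tissue, fewer cells of a type and less RNA per cell cannot be told apart.

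Each library held between 63010295 and 79072710 counted reads. The table listed 23526 genes, and 18714 passed the filter on low counts. Marker levels are given as CPM, counts scaled to a library of 1000000 reads, after TMM scaling, which corrects each library for differences in composition. Slc12a5, the chloride exporter of mature neurons, stood at 457 to 609 CPM in sham and at 247 to 456 CPM in 6 SCI libraries, but on day 3 at 32.0 CPM in replicate 1 and 31.5 CPM in replicate 3, and at 94.7 CPM in SCI day 14 replicate 2. Chat, the acetylcholine synthesis enzyme of motor neurons, was at 1.99 and 1.37 CPM in those same day 3 replicates and at 22.0 CPM or more in all other libraries. Sham replicate 2 stood apart from the other sham libraries: the mean log2 level of 12 neutrophil genes, relative to the sham mean, was 3.28 there against -1.15 and -2.13. Scn10a, which encodes the Nav1.8 channel typical of nociceptors, was at 19.6 CPM in SCI day 3 replicate 2 and at 79.6 and 131 CPM in SCI day 14 replicates 1 and 2, against 0.162 to 1.05 CPM elsewhere.

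Over all 3 days, 9 genes rose against sham and 0 fell at an adjusted p under 0.05 in edgeR's quasi-likelihood test with Benjamini-Hochberg adjustment. Those 9 are 0.0481% of the genes tested. At an unadjusted p under 0.05 there were 3578 genes, 2425 higher and 1153 lower in SCI. The 9 comprised Cebpb, Tmem158, Ccdc71l, H1f10, Apold1, a long noncoding RNA without a symbol (ENSRNOG00000069049), Taf10, Hnrnpa0 and Jund, in order of the size of the rise. In every one of them all 9 SCI values lay above all 3 sham values. The call is for the mean over days, and not every gene passed on each day alone. On day 14 against sham, the edgeR adjusted p was 0.000375 for Tmem158 and 0.0408 for Cebpb. It was 0.127 for Taf10, H1f10 and Jund, 0.235 for Hnrnpa0 and 0.347 for Apold1. Other tools called more: DESeq2 called 1497 genes (1247 higher, 250 lower) and limma voom with sample weights 5716 (2753 higher, 2963 lower), and both lists held all 9. A single library decided the count. Without SCI day 3 replicate 2, edgeR called 3341 genes (1567 higher, 1774 lower, all 9 among them), and leaving out any 1 sham library left 1 gene, Tmem158.

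Cebpb encodes the transcription factor C/EBP-beta, a driver of acute phase and inflammatory genes. Its 3 sham values were 0.356, 0.553 and 0.687 CPM. The SCI values were 58.6, 23.3 and 74.5 CPM on day 3, 12.5, 25.9 and 37.1 CPM on day 7, and 10.04, 26.5 and 17.6 CPM on day 14. The lowest SCI library thus still stood far above the highest sham library, a gap of 3.81 on the log2 CPM scale and the widest of any gene tested. The mean rise over days was 5.75 on the log2 scale (SE 0.606, edgeR adjusted p = 0.0109). By day the log2 differences from the same 3 sham libraries were 6.61, 5.56 and 5.08 on days 3, 7 and 14.

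Tmem158, which encodes a membrane protein known as a Ras-induced senescence gene, gave the smallest p of the table. Sham values of 1.30, 1.34 and 1.34 CPM lay close together, and SCI values ran from 8.72 to 17.2 CPM with a median of 10.7 CPM. The rise was 3.10 on the log2 scale (SE 0.204, edgeR adjusted p = 0.000335), with 2.95, 3.00 and 3.36 on days 3, 7 and 14. Tmem158 was called in all 24 alternative settings tried, the sole gene of the 9 for which that held. Ccdc71l, a coiled-coil domain gene of little described function, had sham values of 0.470, 0.507 and 0.484 CPM and SCI values from 2.42 to 5.85 CPM, median 4.46 CPM. It rose by 3.10 on the log2 scale (SE 0.304, edgeR adjusted p = 0.00849), with 3.40, 2.97 and 2.92 on days 3, 7 and 14. Cebpb and Ccdc71l were each called in 21 of the 24 alternatives and missed the threshold when any 1 sham library was left out.

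Apold1, an early response gene of endothelial cells, had sham values of 8.05, 19.5 and 19.8 CPM and SCI values from 41.3 to 104 CPM, median 60.6 CPM. Its rise was 2.03 (SE 0.282, edgeR adjusted p = 0.0474), and the day values were 2.56, 1.83 and 1.69. H1f10, a linker histone, had sham values of 1.46, 2.67 and 1.42 CPM, while its SCI values ran from 4.79 to 12.8 CPM around a median of 10.4 CPM. It rose by 2.35 (SE 0.321, edgeR adjusted p = 0.0472), with 2.02, 2.56 and 2.46 on days 3, 7 and 14. Within SCI, the lowest H1f10 value was SCI day 3 replicate 3. The noncoding RNA ENSRNOG00000069049 had sham values of 11.4, 8.08 and 12.3 CPM and SCI values from 24.6 to 37.9 CPM, median 29.2 CPM. Its log2 rise was 1.48 (SE 0.193, edgeR adjusted p = 0.0408), nearly level over days at 1.44, 1.56 and 1.45.

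Among the smaller rises, Taf10, a subunit shared by the general transcription factor TFIID and the SAGA coactivator, had sham values of 7.35, 7.35 and 8.31 CPM. Its SCI values ran from 14.7 to 25.8 CPM with a median of 18.7 CPM. The log2 rise was 1.30 (SE 0.141, edgeR adjusted p = 0.0109), and 1.56, 1.25 and 1.11 by day. Hnrnpa0, an RNA-binding protein that acts on mRNA stability, was at 34.5, 46 and 38.2 CPM in sham and from 69.4 to 121 CPM in SCI, median 84.3 CPM. It rose by 1.11 (SE 0.144, edgeR adjusted p = 0.0408), with 1.43, 0.90 and 1.01 by day. Jund, an AP-1 subunit, was at 67.2, 63.9 and 66.9 CPM in sham and from 105 to 142 CPM in SCI, median 113 CPM. Its rise was the smallest of the 9 at 0.81 (SE 0.110, edgeR adjusted p = 0.0472), with 0.84, 0.73 and 0.87 by day. Taf10 was called in 19 of the 24 alternatives. The other 5 had adjusted p-values between 0.0408 and 0.0474, and were called in 9 (H1f10 and ENSRNOG00000069049), 8 (Hnrnpa0), 7 (Jund) and 5 (Apold1) of them.

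No gene passed the test of a difference between days 3, 7 and 14 (0% of the genes tested, edgeR, 2560 at an unadjusted p under 0.05). DESeq2 called 796 genes in that test and voom 1. Without SCI day 3 replicate 2, edgeR called 3236 genes in it, and without SCI day 14 replicate 1 it called 1. For the 9 genes edgeR detected no difference between days after adjustment, which does not show that their levels were the same on each day. The unadjusted edgeR p was 0.0193 for Hnrnpa0, 0.0296 for Apold1, 0.03 for Cebpb and 0.045 for Taf10. It was 0.133 for Tmem158, 0.286 for H1f10 and 0.534 for Jund.

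Most of the called genes had models with little or no intron sequence. The length of each gene model was derived from the deposited counts and FPKM and set against the gene's span in the table, and a model counted as such where it filled at least 95% of its span. Of the 8 called protein-coding genes, 6 had such a model (75.0%): Tmem158, Cebpb, Ccdc71l, Jund, H1f10 and Hnrnpa0. These 6 models filled 101% to 104% of their span, so the derived lengths are not exact and the 95% limit is approximate. Apold1 filled 48.1% of its span and Taf10 61.7%. Among the 16885 protein-coding genes tested, 829 had such a model (4.91%). Of the protein-coding genes with all SCI values above sham, 45 of 694 had it (6.48%), and of those below sham, 19 of 379 (5.01%). Over the 829 genes with such a model the median log2 difference was 0.00685, against 0.00895 over the other 16056. This share was noticed after the calls were seen and is given with no test.

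Promoters of 4 called genes are shown: the top gene Cebpb, and 3 of the 4 genes with a motif match. RefSeq promoter sequences of build GRCr8 were matched by unique symbol for 8 of the 9 called genes and for 11307 of the 18714 tested. The 250 bases before the annotated start were searched on both strands for AP-1 (TGANTCA), CRE (TGACGTCA), STAT (TTCNNNGAA), C/EBP (TTGCNNAA), NF-kB (GGGNNTTCC) and the CArG box of serum response factor. Each sequence below runs 5′ to 3′ on the gene's own strand and ends at the base before the start, in lower case with motif matches in capitals. Taf10 (chr1:169508209-169508458, minus strand) and Jund (chr16:18769772-18770021, minus strand) each hold a CRE. Ccdc71l (chr6:54687224-54687473, plus strand) holds a STAT match, and Cebpb (chr3:176816755-176817004, plus strand) holds none of the motifs. At least 1 of the 6 motifs was found in 4 of the 8 called genes and in 2826 of all 11307 matched promoters (25%).
Taf10: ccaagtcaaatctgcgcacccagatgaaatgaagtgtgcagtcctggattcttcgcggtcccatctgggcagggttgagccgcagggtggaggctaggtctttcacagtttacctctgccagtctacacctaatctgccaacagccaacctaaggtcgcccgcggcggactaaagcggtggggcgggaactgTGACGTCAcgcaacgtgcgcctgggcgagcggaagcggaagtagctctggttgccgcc
Jund: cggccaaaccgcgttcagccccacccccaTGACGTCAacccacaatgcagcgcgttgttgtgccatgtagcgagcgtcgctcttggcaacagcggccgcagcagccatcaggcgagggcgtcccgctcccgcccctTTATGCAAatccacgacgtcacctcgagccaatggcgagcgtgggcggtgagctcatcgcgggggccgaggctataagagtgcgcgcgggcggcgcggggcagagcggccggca
Ccdc71l: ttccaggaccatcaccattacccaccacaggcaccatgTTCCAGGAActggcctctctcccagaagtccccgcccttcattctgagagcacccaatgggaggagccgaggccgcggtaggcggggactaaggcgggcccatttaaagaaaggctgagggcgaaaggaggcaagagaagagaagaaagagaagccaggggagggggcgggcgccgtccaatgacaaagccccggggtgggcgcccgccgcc
Cebpb: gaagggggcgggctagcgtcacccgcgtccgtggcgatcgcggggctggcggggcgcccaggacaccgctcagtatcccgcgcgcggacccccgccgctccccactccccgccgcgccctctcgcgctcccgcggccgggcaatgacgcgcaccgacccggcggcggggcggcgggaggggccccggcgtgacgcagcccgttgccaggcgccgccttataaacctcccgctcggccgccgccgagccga

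The CRE match began 58 bases before the start in Taf10 and 221 bases before it in Jund. Of all matched promoters, 2.65% held a CRE. In Jund a C/EBP match, found on the reverse strand, began 114 bases before the start and did not overlap the CRE. The STAT match of Ccdc71l began 212 bases before the start, and Apold1 held one 73 bases before its own, against 5.86% of all promoters with that motif. None of the 8 called genes with a matched promoter held AP-1, NF-kB or CArG letters in this window. The GC content of the printed windows was 60.0% for Taf10, 68.4% for Jund, 63.2% for Ccdc71l and 80.0% for Cebpb. The median was 70.6% over the 8 matched genes and 59.6% over all.

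By the looser measure, 723 genes had all 9 SCI values above all 3 sham values (3.86% of the genes tested) and 414 had all 9 below (2.21%), together 1137 (6.08%). All 9 called genes were among the 723. Over the 723, the median log2 difference was 1.17, and 1.40, 1.04 and 0.897 on days 3, 7 and 14. For the 414 it was -0.694, and -0.985, -0.504 and -0.501 by day. The day values share the same sham libraries. Day 3 lay farthest from sham in 543 of the 723 and in 353 of the 414. Most gaps between the nearest SCI and sham libraries were narrow: a gap over 1 on the log2 scale was found in 28 genes above sham and in 0 below. The count depended on single libraries. SCI day 14 replicate 1 was the nearest SCI library in 329 of the 723 and 143 of the 414, and sham replicate 2 the nearest sham library in 414 and 225. Without sham replicate 2 the counts were 1943 above and 1797 below (10.2% and 9.4% of the genes then tested), without SCI day 14 replicate 1 they were 1184 and 865 (6.2% and 4.53%), and without sham replicate 1 they were 1057 and 775 (5.52% and 4.05%). Without SCI day 7 replicate 1 the shares were 4.86% and 3.23%, and without sham replicate 3 they were 4.78% and 2.86%. Dropping a library can only relax this measure, apart from shifts in scaling and filtering. Under other scalings the split was 662 above and 504 below with DESeq2 size factors and 818 above and 323 below with no TMM factor.

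Above sham, the widest gaps after Cebpb and Tmem158 were ranked among genes with a symbol and a mean of at least 5 CPM in SCI or sham, a limit that leaves out weakly expressed genes with wider gaps, among them the called Ccdc71l with a gap of 2.19. This ranking was chosen after the values were seen. Rgs1, a regulator of chemokine receptor signalling in leukocytes, was at 0.454, 0.569 and 0.578 CPM in sham and from 1.66 to 23.7 CPM in SCI, median 4.93 CPM. Its difference was 3.87 (edgeR adjusted p = 0.151), with 4.43, 3.94 and 3.26 by day. Lbp, the lipopolysaccharide-binding acute phase protein, was at 1.28, 2.69 and 1.58 CPM in sham and from 7.25 to 159 CPM in SCI. The day values of Lbp were 3.46, 4.09 and 5.14, and its highest library was SCI day 14 replicate 2. Ripk3, the kinase of necroptosis, was at 1.60, 1.61 and 0.984 CPM in sham and from 3.27 to 33.1 CPM in SCI, with 3.68, 3.19 and 2.28 by day. Xpa, a damage recognition factor of nucleotide excision repair, showed a small but even difference: 2.09, 1.89 and 2.08 CPM in sham, 4.28 to 8.34 CPM in SCI, and 1.52, 1.5 and 1.76 by day (edgeR adjusted p = 0.0986). Card14, Akr1b8, Snx20, Fxyd5 and Ltbp2 completed the 12 of this ranking with Apold1. Card14, a scaffold of NF-kB signalling, had 2.80, 2.75 and 4.28 by day (edgeR adjusted p = 0.135). On day 14 its replicates 1, 2 and 3 were at 5.81, 75.6 and 20.5 CPM. Akr1b8, an aldo-keto reductase, had 4.91, 3.28 and 2.67 by day. Ltbp2, a matrix protein, had 4.11, 3.17 and 3.26, Snx20 2.51, 2.49 and 2.11, and Fxyd5 2.5, 1.81 and 2.05.

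Below sham the widest gap was that of Syce1l, a gene related to a synaptonemal complex component. Its sham values were 12, 7.68 and 10.2 CPM and its SCI values ran from 0.154 to 4.30 CPM, median 0.929 CPM. The difference was -3.28 (SE 0.547, edgeR adjusted p = 0.0986), with -4.99, -1.93 and -2.93 by day. Slc25a18, a mitochondrial glutamate carrier of astrocytes, was at 52.4, 61.3 and 70.3 CPM in sham and from 3.97 to 41.3 CPM in SCI, with -2.69, -1.13 and -1.24 by day. Heyl, a Notch target, was at 52.9, 49.0 and 48.0 CPM in sham and from 13.5 to 38.3 CPM in SCI, with -1.06, -1.16 and -0.75 by day. Qpctl, a Golgi glutaminyl cyclase, had values close together in both groups: 22.9, 26.8 and 24.6 CPM in sham and 13.5 to 18.9 CPM in SCI (-0.66, -0.53 and -0.45 by day, edgeR adjusted p = 0.123). Adam11 and Cntn6, which encode neuronal surface proteins, were lowest in the 2 day 3 libraries low in Slc12a5. Adam11 was at 5.64 and 22.5 CPM there and from 71.0 to 162 CPM in the other SCI libraries.

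**Figure D1:**
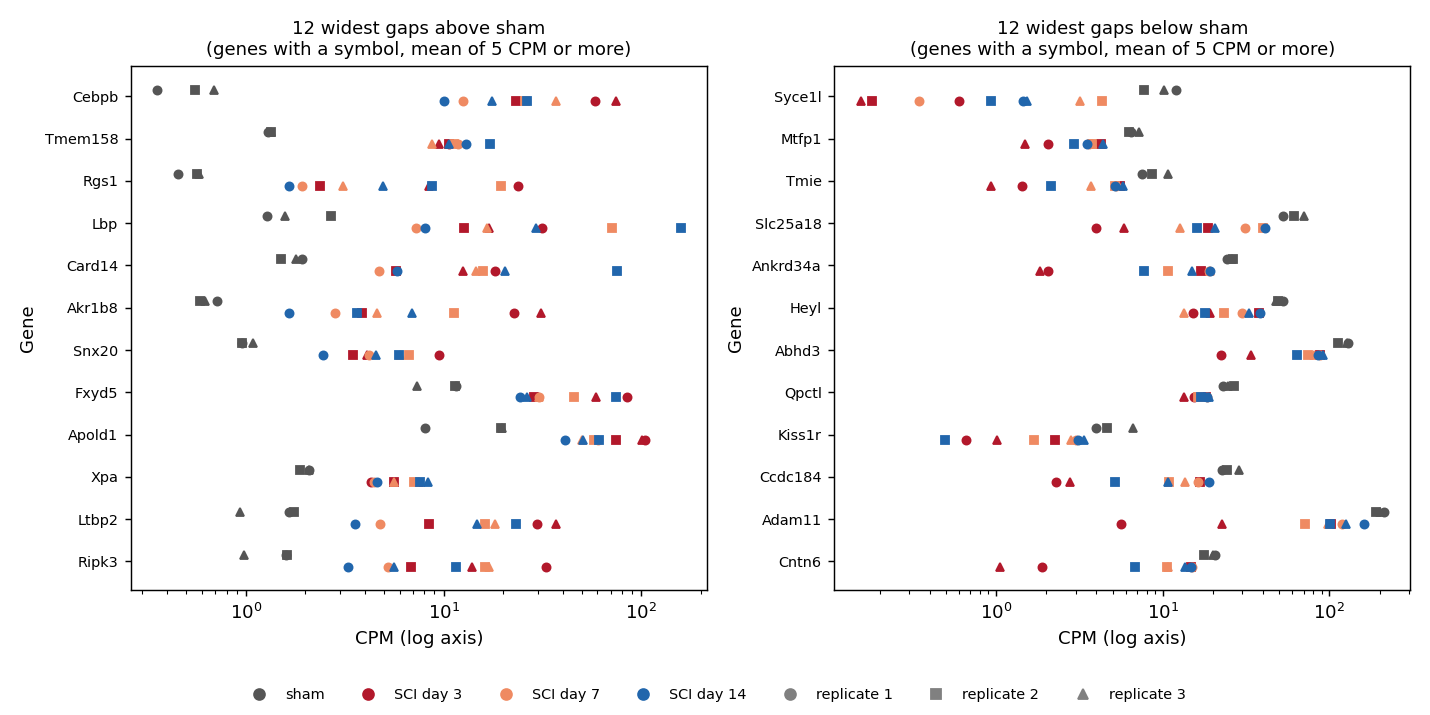
CPM (log axis) of the 12 genes with the widest gap above sham (left) and below sham (right) among genes with a symbol and a mean of at least 5 CPM in SCI or sham, with 1 point per library, colour for the group and marker shape for the replicate; sham points are drawn above the SCI points of the same gene. Cebpb spans 10.04 to 74.5 CPM in SCI against 0.356 to 0.687 CPM in sham, whereas gaps below sham are narrow, as in Cntn6 with 14.9 CPM in the nearest SCI library and 17.6 CPM in the nearest sham library.

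The lists of pathway and cell type genes were then read by 2 counts: members that passed the edgeR test, and members lying wholly above or below sham, to be set against 3.86% and 2.21% of all genes. List counts at an unadjusted p under 0.05 have another background, 2425 genes higher and 1153 lower of the 18714 tested. For list counts in DESeq2 it is 1247 genes higher and 250 lower, and in voom 2753 higher and 2963 lower. Counts given without a library are to be set against the mostly larger shares of all genes without that library, 10.2% above and 9.4% below without sham replicate 2. Without SCI day 3 replicates 1 and 3 the shares were 3.93% above and 2.4% below. They were 3.71% and 2.54% without SCI day 14 replicate 2, and 4.32% and 2.84% without SCI day 14 replicate 3. The share below sham was 2.35% without SCI day 7 replicate 2, and the share above was 3.97% without SCI day 3 replicate 3. The inflammatory transcription list, which covers STAT3, C/EBP factors and their feedback, had 7 of 20 tested members above sham, and of these Cebpb rose in the test. The others were Cebpd, Stat3, Socs3, Bcl3, Runx1 and Spi1. Socs3, the feedback inhibitor of cytokine receptors, was at 3.21, 5.44 and 3.23 CPM in sham and from 7.99 to 359 CPM in SCI, median 61.9 CPM. Its log2 difference was 4.32 (SE 0.891, edgeR adjusted p = 0.12), with 5.76, 4.53 and 2.66 by day. Stat3 itself, the factor that induces it, was at 115, 95.2 and 103 CPM in sham and from 138 to 465 CPM in SCI, with 1.78, 1.17 and 0.69 by day (edgeR adjusted p = 0.132). Cebpd, the partner of Cebpb, was at 4.16, 14.4 and 6.06 CPM in sham and from 17.3 to 237 CPM in SCI, with 4.09, 2.97 and 2.24 by day (edgeR adjusted p = 0.132). The list's median difference was 1.18, against 0.00221 over all genes. At an unadjusted p under 0.05, 17 of the 20 were higher in SCI, and DESeq2 called 11 of them and voom 17. The count was 16 members without sham replicate 2, 11 without SCI day 7 replicate 1, and 7 without SCI day 3 replicates 1 and 3.

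Of the interleukin 6 family ligands and receptors, 1 of 12 lay above sham, the oncostatin M receptor Osmr. It was at 4.84, 6.44 and 5.98 CPM in sham and from 11.4 to 117 CPM in SCI, median 36.3 CPM, with 3.73, 2.79 and 2.19 by day (edgeR adjusted p = 0.12). That count was 5 without sham replicate 2, 3 without SCI day 7 replicate 1 and without SCI day 14 replicate 1, and 2 without sham replicate 1 and without sham replicate 3. In the list of other cytokines and chemokines, 5 of 26 lay above sham and 0 passed the edgeR test (13 higher at an unadjusted p under 0.05, DESeq2 10, voom 9 higher and 1 lower). These were Il1r1, Tgfb1, Ccl2, Cxcl1 and Cxcl16. Il1r1, the signalling receptor of interleukin 1, was at 14.0, 19.1 and 13 CPM in sham and from 22.1 to 125 CPM in SCI, with 2.49, 1.52 and 1.06 by day (edgeR adjusted p = 0.133). The cytokine count was 10 without sham replicate 2 and 8 without SCI day 14 replicate 1.

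Among 19 immediate early genes, 4 lay above sham: Fos, Jun, Jund and Maff. Jund was the member that rose in the test. Fos was at 18.1, 18.4 and 16.9 CPM in sham; its SCI values were 111, 100 and 121 CPM on day 3 and from 22.6 to 89.0 CPM later. Fos thus lay higher in each day 3 library than in any later one (2.63, 1.61 and 0.93 by day, edgeR adjusted p = 0.126). Maff, a small Maf factor, was at 2.20, 2.69 and 2.30 CPM in sham and from 4.22 to 120 CPM in SCI, with 5.04, 3.08 and 1.79 by day. Jun was at 77.7, 77.5 and 73.8 CPM in sham and from 93.5 to 256 CPM in SCI, with 1.25, 0.87 and 0.77 by day. In contrast with Fos and Maff, the called Jund spanned a narrow range across days. The immediate early count was 11 without sham replicate 2 and 9 without SCI day 7 replicate 1. Of the AP-1 motif, 38 of 477 matched promoters of genes above sham held it (7.97%), 5 of 261 of genes below sham (1.92%) and 4.68% of all. For the CArG box the shares were 2.94%, 2.68% and 1.16%. In the same order the shares were 7.97%, 6.13% and 7.92% for C/EBP, level with all promoters above sham, and 3.14%, 3.83% and 2.65% for CRE, highest below sham. They were 7.55%, 6.9% and 5.86% for STAT and 7.76%, 5.36% and 5.82% for NF-kB. No test was made of these shares. Among the ERK feedback genes, 2 of 16 lay above sham, Dusp5 and Dusp6. Dusp5, a nuclear ERK phosphatase, had 2.92, 0.61 and 0.74 by day (edgeR adjusted p = 0.13), and the count was 4 without sham replicate 1 and without sham replicate 2.

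The reactive astrocyte list had 10 of 27 tested members above sham, with a median difference of 2.06. In edgeR 0 of them passed, 23 were higher at an unadjusted p under 0.05, and DESeq2 and voom each called 22. Cd44, a hyaluronan receptor, was at 27.8, 24.0 and 24.0 CPM in sham and from 40.7 to 264 CPM in SCI, median 105 CPM. Its difference was 2.14 (SE 0.428, edgeR adjusted p = 0.12), with 2.81, 2.26 and 1.36 by day. Hspb1, a small heat shock protein, was at 38.4, 38.2 and 36.9 CPM in sham and from 48.5 to 527 CPM in SCI, with 2.74, 2.94 and 1.30 by day. Cp, the ferroxidase ceruloplasmin, was at 45.0, 59.6 and 53.9 CPM in sham and from 71.4 to 391 CPM in SCI, with 2.36, 2.09 and 1.71 by day. Gfap, the filament protein that defines reactive astrocytes, overlapped with sham: 2330, 1000 and 2350 CPM in sham and 1240 to 8360 CPM in SCI, median 4720 CPM. Gfap lay highest on day 7, at 7560, 8360 and 7030 CPM, and it had 0.69, 2.02 and 0.68 by day (edgeR adjusted p = 0.25). The list had 22 members above sham without sham replicate 2 and 10 without SCI day 3 replicates 1 and 3. Of the 24 homeostatic astrocyte genes, Slc25a18 lay below sham. Aldh1l1, a folate enzyme and pan-astrocyte marker, came nearer to the threshold (edgeR adjusted p = 0.0631) without being separated: 56.9, 43.1 and 56.9 CPM in sham and 11.5 to 47.8 CPM in SCI, with -1.86, -0.70 and -0.33 by day. That list's count was 10 below sham without sham replicate 2, 3 without SCI day 14 replicate 1, and 2 without SCI day 7 replicate 1 or SCI day 14 replicate 3.

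In the activated microglia and phagocyte list, 8 of 34 lay above sham, with a median difference of 1.78. In edgeR 0 passed and 27 were higher at an unadjusted p under 0.05, while DESeq2 called 25 and voom 27 as higher. Lgals3, the phagocyte lectin galectin-3, was at 7.66, 12.8 and 7.75 CPM in sham and from 17.3 to 279 CPM in SCI, median 103 CPM. Its day values were 4.07, 3.72 and 2.78 (edgeR adjusted p = 0.12). Gpnmb, a glycoprotein of lipid-laden phagocytes, was at 13, 11 and 11.5 CPM in sham and from 17.9 to 646 CPM in SCI, with 4.45, 4.59 and 4.27 by day (SE of the mean difference 1.14, edgeR adjusted p = 0.151). SCI day 14 replicate 1 was the lowest SCI library for both genes and lay close to sham. Aif1, the pan-microglial marker IBA1, was at 4.57, 5.67 and 5.70 CPM in sham and from 5.35 to 37.9 CPM in SCI, with 1.30, 2.34 and 1.57 by day (edgeR adjusted p = 0.151). Cd68, a lysosomal marker of phagocytes, was at 2.17, 4.56 and 1.61 CPM in sham and from 4.08 to 83.7 CPM in SCI, with 2.92, 3.11 and 3.94 by day (edgeR adjusted p = 0.172). Both Aif1 and Cd68 overlapped with sham through SCI day 14 replicate 1 alone. The list's count above sham was 21 without sham replicate 2 and 18 without SCI day 14 replicate 1. Of 15 monocyte and border macrophage genes, 3 lay above sham, F13a1, Pf4 and Siglec1, and 7 did so without sham replicate 2, 6 without SCI day 14 replicate 1 and 5 without SCI day 7 replicate 1. Pf4, a platelet and macrophage chemokine, had 1.85, 3.45 and 3.29 by day (edgeR adjusted p = 0.133).

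Complement held 8 of 20 tested members above sham. In edgeR 0 passed the test and 16 were higher at an unadjusted p under 0.05, while DESeq2 called 14 and voom 15. The 8 spanned the classical pathway (C1qb, C1qc, C1s, C4a, C4b), the alternative pathway (Cfb, Cfd) and the anaphylatoxin receptor C3ar1. C1qb was at 19.2, 18.1 and 19.6 CPM in sham and from 22.8 to 229 CPM in SCI, median 162 CPM, with 2.6, 3.19 and 2.83 by day (edgeR adjusted p = 0.137). C4a, a near-identical copy of C4b so that reads may be split between them, was at 57.8, 83.6 and 59.5 CPM in sham and from 111 to 327 CPM in SCI. Its day values were 1.19, 1.41 and 1.84 (edgeR adjusted p = 0.126). Cfb, the protease subunit of the alternative pathway, was at 30.1, 39.8 and 33.8 CPM in sham and from 51.9 to 188 CPM in SCI, with 1.38, 1.37 and 1.67 by day. The medians of the complement list were 1.79, 1.56 and 1.91 on days 3, 7 and 14, while those of the cytokine list were 2.46, 1.62 and 0.997. Leaving out any 1 library gave 7 to 12 complement members above sham.

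Antigen presentation and interferon genes showed smaller differences. Of 16 class I processing genes, 3 lay above sham (B2m, Psmb8 and Psmb10), of 9 class II genes 1 (RT1-DMb), and of 28 interferon response genes 4 (Ifitm3, Irf9, Gbp2 and Parp14). Psmb8, an immunoproteasome subunit, was at 3.74, 7.22 and 4.69 CPM in sham and from 7.90 to 30.7 CPM in SCI, with 2.04, 1.84 and 1.32 by day (edgeR adjusted p = 0.132). Ifitm3, which restricts virus entry, was at 8.49, 23.4 and 10.5 CPM in sham and from 25.7 to 161 CPM in SCI, with 2.90, 1.93 and 1.38 by day. RT1-DMb, a peptide-loading chaperone, had 2.22, 2.20 and 1.83 by day. Without sham replicate 2 the 3 counts were 9, 4 and 10. The class II count was 2 without sham replicate 3 or SCI day 14 replicate 1. Among 28 cathepsin and lysosome genes, 4 lay above sham: Ctsb, Ctsc, Ctsz and Grn. Ctsb, a lysosomal protease, was at 416, 466 and 461 CPM in sham and from 601 to 2036 CPM in SCI, with 1.5, 1.44 and 1.17 by day (edgeR adjusted p = 0.142). The lysosome count was 10 without sham replicate 2, 8 without SCI day 14 replicate 1 and 7 without sham replicate 1.

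Stress and cell death genes above sham numbered 6 of 21 in the p53 and apoptosis list. In edgeR 0 passed the test and 19 were higher at an unadjusted p under 0.05, while DESeq2 called 15 and voom 19. Tnfrsf1a, the TNF receptor that can signal death, was at 24.7, 28.4 and 21.2 CPM in sham and from 37.2 to 188 CPM in SCI, with 2.52, 1.80 and 1.18 by day (edgeR adjusted p = 0.12). Tnfrsf12a, the TWEAK receptor, was at 3.74, 3.09 and 3.94 CPM in sham and from 5.20 to 57.6 CPM in SCI, with 3.51, 2.32 and 1.13 by day. The count was 15 without SCI day 14 replicate 1 and 11 without sham replicate 2. Of 13 iron and heme genes, 3 lay above sham (6 without sham replicate 2). Hmox1, the heme-degrading enzyme, was at 7.26, 12.5 and 8.94 CPM in sham and from 13.2 to 224 CPM in SCI, with 4.04, 3.91 and 1.75 by day (edgeR adjusted p = 0.128). Hypoxia and glycolysis genes above sham numbered 3 of 23, Hk2, Ldha and Adm, with Ldha at 2.21, 1.36 and 0.78 by day. The median difference of that list was 0.0404, and in edgeR 6 members were higher and 2 lower at an unadjusted p under 0.05. Of the cell cycle list, 4 of 38 lay above sham, and Cdk1, the mitotic kinase, was at 0.810, 1.03 and 0.469 CPM in sham and from 1.12 to 36.1 CPM in SCI, with 4.12, 3.85 and 2.04 by day. The median difference of the cell cycle list was 1.78, and 2.74, 2.20 and 0.714 by day. In edgeR 0 of its members passed and 23 were higher at an unadjusted p under 0.05, while DESeq2 called 5 and voom 11. The cell cycle count was 17 without sham replicate 2 and 9 without SCI day 14 replicate 1. Mt2A, a metallothionein, missed separation through SCI day 14 replicate 1 alone at 5.83 CPM, with 3.88, 3.88 and 2.83 by day (edgeR adjusted p = 0.12).

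Vessel, matrix and coagulation genes also contributed. Of 23 plasminogen, coagulation and kinin genes, 7 lay above sham. In edgeR 0 passed and 17 were higher at an unadjusted p under 0.05, and DESeq2 called 15 and voom 17. F2rl1, the protease-activated receptor PAR2, was at 0.389, 0.615 and 0.250 CPM in sham and from 0.735 to 13 CPM in SCI, with 4.65, 4.11 and 1.84 by day (edgeR adjusted p = 0.0986). Of 33 fibrosis and basement membrane genes, 5 lay above sham: Fn1, Lox, Loxl1, Thbs2 and Ccn2. Thbs2, a matricellular thrombospondin, was at 20.1, 28.9 and 20.8 CPM in sham and from 53.6 to 568 CPM in SCI, with 3.82, 3.51 and 2.15 by day (edgeR adjusted p = 0.12). Fn1, fibronectin, was at 187, 169 and 110 CPM in sham and from 262 to 971 CPM in SCI, with 2.12, 2.18 and 1.80 by day. Without sham replicate 2 the coagulation count was 15 and the fibrosis count 18, and the fibrosis count was 11 without SCI day 7 replicate 1.

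In the pericyte and smooth muscle list, 3 of 14 lay above sham. Des, the intermediate filament of pericytes and muscle, was the gene nearest to the threshold among list members that missed it (edgeR adjusted p = 0.054). It was at 4.63, 7.42 and 4.41 CPM in sham and from 11.1 to 39.6 CPM in SCI, median 16.9 CPM, with 2.53, 1.94 and 1.26 by day. That count was 7 without sham replicate 2 and 5 without sham replicate 1. Of 22 endothelial genes, 4 lay above sham, Pecam1, Vwf, Esam and Icam1. Vwf, the platelet adhesion protein of endothelium, was at 124, 169 and 108 CPM in sham and from 203 to 796 CPM in SCI, with 1.85, 1.23 and 0.89 by day. Among 22 metalloproteinases and inhibitors, 3 lay above sham. Timp1, the inhibitor, was at 5.57, 22.0 and 6.41 CPM in sham and from 30.5 to 428 CPM in SCI, with 4.44, 3.24 and 2.22 by day (edgeR adjusted p = 0.12). The metalloproteinase count was 10 without sham replicate 2 and 5 without SCI day 14 replicate 1.

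Of 27 genes associated with axon regeneration, 10 lay above sham, and leaving out any 1 library gave 10 to 12. In edgeR 0 passed the test and 14 were higher at an unadjusted p under 0.05, while DESeq2 called 14 and voom 15 as higher. They were Jun, Sox11, Klf6, Smad1, Cebpd, Stat3, Tubb6, Hspb1, Cd44 and Socs3, of which the last 3 and Cebpd, Jun and Stat3 also stand in the reactive astrocyte, inflammatory or immediate early lists. Sox11, a factor of developing and regenerating neurons, was at 0.940, 1.68 and 1.56 CPM in sham and from 2.39 to 5.5 CPM in SCI, with 1.39, 1.26 and 0.98 by day (edgeR adjusted p = 0.151). Klf6 was at 26.6, 39.7 and 20.3 CPM in sham and from 43.7 to 185 CPM in SCI, with 2.30, 1.14 and 1.0 by day. Among 24 neurotrophic factors and receptors none was separated in either direction. Bdnf, a growth factor of spinal plasticity, was at 4.08, 2.32 and 3.61 CPM in sham and from 0.504 to 4.88 CPM in SCI, with -0.22, -0.32 and -0.12 by day (edgeR adjusted p = 0.833). Its mean difference of -0.22 turned to 0.0389 without SCI day 3 replicates 1 and 3. Without SCI day 14 replicate 1 or sham replicate 2 the neurotrophic count above sham was 3, without sham replicate 1 it was 2, and without SCI day 7 replicate 1 it was 1.

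**Figure D2:**
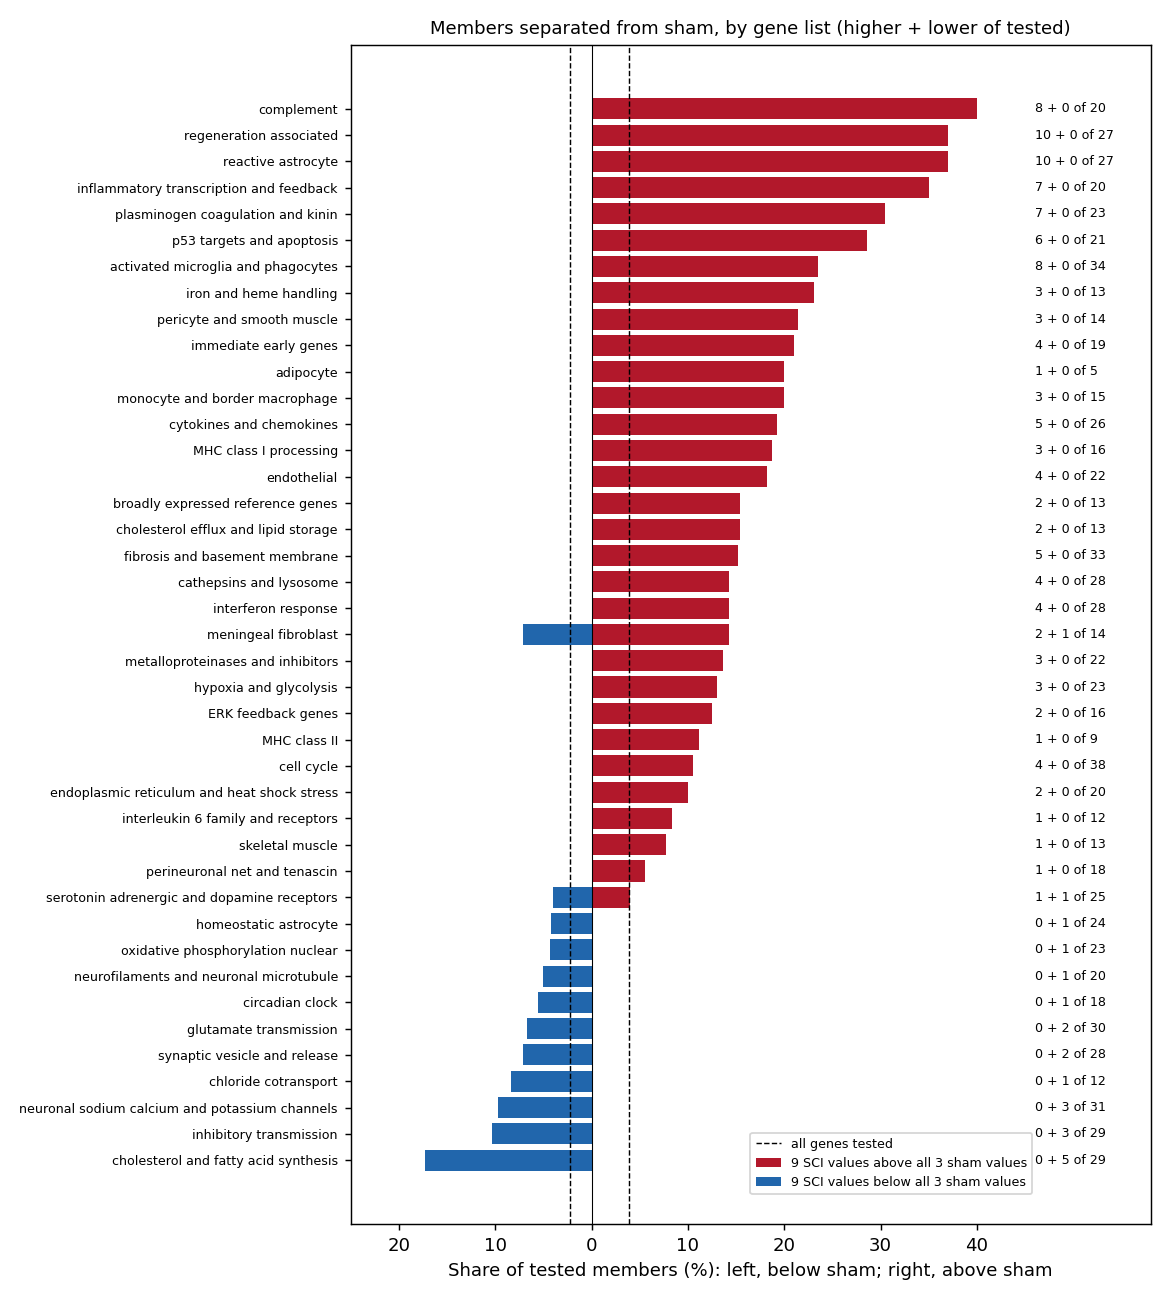
Share of the tested members of each gene list (%) with all 9 SCI values above (right, red) or below (left, blue) all 3 sham values, with the counts at the right edge; dashed lines mark the shares over all genes tested, 3.86% and 2.21%. Complement (8 of 20) and the regeneration and reactive astrocyte lists (10 of 27 each) reach farthest to the right, and cholesterol and fatty acid synthesis (5 of 29) farthest to the left; lists with no separated member are not drawn.

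Below sham, the list with the most separated members was that of cholesterol and fatty acid synthesis, 5 of 29. In edgeR 0 passed the test and 12 were lower at an unadjusted p under 0.05, while DESeq2 called 3 and voom 11 as lower. The 5 were Mvk, Mvd and Sc5d, enzymes of the sterol pathway, Acly, which makes cytosolic acetyl-CoA, and Srebf2, the master transcription factor of sterol synthesis. Mvk was at 63.7, 63 and 69.0 CPM in sham and from 25.5 to 54.5 CPM in SCI, median 39.4 CPM. Its difference was -0.76 (SE 0.205, edgeR adjusted p = 0.151), with -0.96, -0.64 and -0.68 by day. Mvd was at 65.4, 65.0 and 57.8 CPM in sham and from 21.8 to 52.8 CPM in SCI, with -0.83, -0.77 and -0.78 by day. Sc5d was at 188, 146 and 153 CPM in sham and from 53.6 to 129 CPM in SCI, with -0.63, -0.69 and -0.83 by day. The differences of these 3 enzymes lay between -0.63 and -0.96 on each day. Acly had -0.60, -0.54 and -0.42 by day and Srebf2 -0.30, -0.46 and -0.41, with gaps of -0.10 and -0.01. The median of the list was -0.518, and -0.367, -0.653 and -0.554 by day. Without SCI day 14 replicate 1 the count was 11, without sham replicate 3 it was 9, and without SCI day 3 replicates 1 and 3 it was 7.

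Neuronal lists had few separated members in number, but the inhibitory, glutamate, vesicle and channel lists exceeded the 2.21% of all genes below sham. The medians of these lists were lowest on day 3 (inhibitory transmission -1.65, -0.584 and -0.725 by day). Of 29 inhibitory transmission genes, 3 lay below sham: Gad1, which makes GABA, the GABA-A subunit Gabra3 and the chloride exporter Slc12a5. Gad1 was at 104, 107 and 131 CPM in sham and from 15.7 to 95.8 CPM in SCI, with -1.50, -0.66 and -0.75 by day (edgeR adjusted p = 0.296). Slc12a5 was separated by less than 0.01 on the log2 scale, its highest SCI library being at 456 CPM and its lowest sham library at 457 CPM, and it had -1.82, -0.61 and -0.75 by day (edgeR adjusted p = 0.375). Gabra3 was at 31.1, 31.2 and 32.9 CPM in sham and from 3.43 to 27.9 CPM in SCI, with -1.69, -0.69 and -0.76 by day. For these genes the values in the 2 day 3 libraries low in Chat were the lowest or near it, and the part those libraries play was not tested beyond leaving them out. Without both of them the count was 3. It was 15 without sham replicate 2, 8 without SCI day 14 replicate 1 and 5 without SCI day 7 replicate 1. Of 30 glutamate transmission genes 2 lay below sham (Gria4 and Grm2), of 28 synaptic vesicle genes 2 (Rab3a and Cplx2), of 31 channel genes 3 (Scn2b, Kcnc2 and Kcnj9) and of 20 neurofilament and microtubule genes 1 (Rbfox3). Without sham replicate 2 these 4 counts were 12, 14, 10 and 10, where 9.4% of all genes lay below sham. Without SCI day 14 replicate 1 they were 7, 8, 7 and 1, against 4.53% of all genes. The glutamate count was also 4 without SCI day 7 replicate 1 or SCI day 14 replicate 2, and the vesicle count 4 without SCI day 14 replicate 2 or 3. On these lists the tools differed: of the inhibitory, glutamate, vesicle and channel genes edgeR and DESeq2 called 0 lower (3, 4, 3 and 3 at an unadjusted p under 0.05 in edgeR), and voom called 22, 23, 26 and 25. Chat overlapped with sham: 39.98, 38.3 and 43.6 CPM in sham and 1.37 to 55.9 CPM in SCI, with -1.92, -0.06 and -0.18 by day (edgeR adjusted p = 0.555).

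None of 24 oligodendrocyte and myelin genes was separated, although 8 lay below sham without sham replicate 2 and 1 without sham replicate 3. The median of the list was -0.53, and -0.712, -0.453 and -0.386 by day. In edgeR 0 passed the test, and 10 were lower and 0 higher at an unadjusted p under 0.05, while DESeq2 called 3 and voom 8 as lower. Cnp, the member with the smallest p, had -1.18, -0.63 and -0.48 by day (edgeR adjusted p = 0.173). Mbp, myelin basic protein, was at 38500, 20600 and 26400 CPM in sham and from 16200 to 30600 CPM in SCI, with -0.32, -0.48 and -0.58 by day (edgeR adjusted p = 0.329). Among 18 circadian clock genes, Hlf lay below sham, with 27.9, 29.8 and 29.1 CPM in sham, 5.61 to 24.7 CPM in SCI, and -1.33, -0.84 and -0.68 by day (edgeR adjusted p = 0.198). That count was 6 without sham replicate 1 and 2 without SCI day 14 replicate 1. Of 25 amine receptors, 1 lay above sham, and Drd5, a dopamine receptor, lay below sham. The amine receptor count below sham was 4 without sham replicate 2, 3 without sham replicate 1, and 2 without sham replicate 3, SCI day 7 replicate 2 or SCI day 14 replicate 3, and the count above was 2 without SCI day 3 replicate 3. None of the oligodendrocyte progenitor, homeostatic microglia, T, B and NK cell, Hox, neuropeptide, ependymal or mitochondrially encoded genes on the lists was separated in either direction. Without sham replicate 2, 3 homeostatic microglia genes and 2 T, B and NK cell genes lay above sham, and 3 neuropeptide, 2 Hox, 2 oligodendrocyte progenitor and 1 homeostatic microglia genes lay below. Leaving out any other single library separated at most 2 genes of any of these lists, and the ependymal and mitochondrially encoded lists stayed at 0 throughout.

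**Figure D3:**
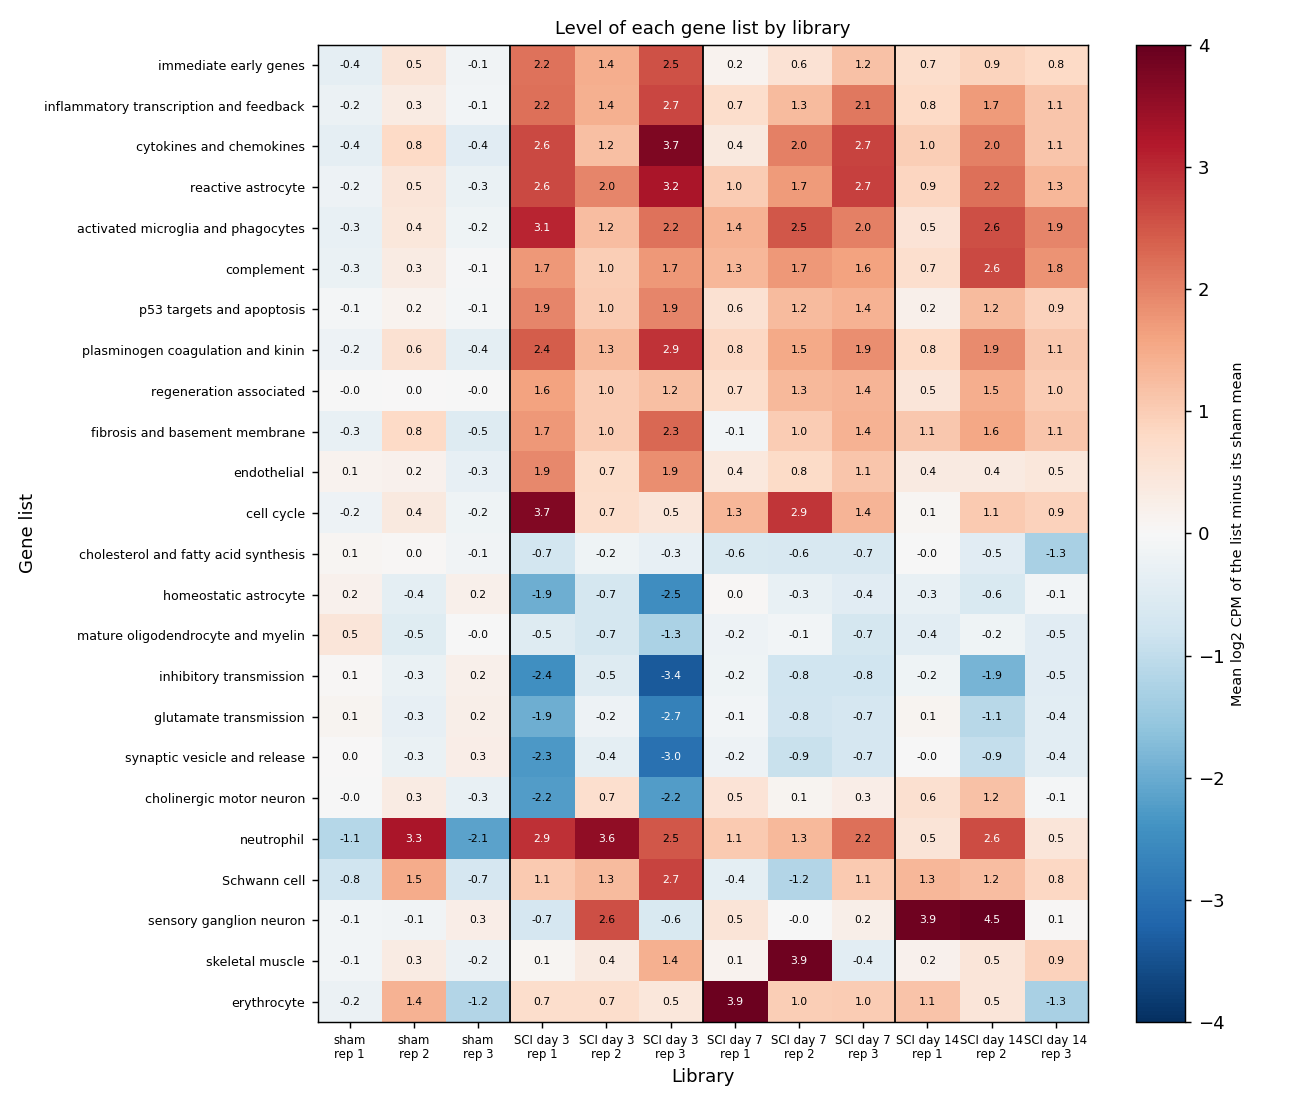
Mean log2 CPM of the tested members of 24 gene lists in each of the 12 libraries, minus the list's mean over the 3 sham libraries (red higher, blue lower, value printed in each cell). SCI day 3 replicates 1 and 3 are lowest in the inhibitory list (-2.44 and -3.36), sham replicate 2 is high in the neutrophil list (3.28), and the sensory ganglion list is high in SCI day 3 replicate 2 and SCI day 14 replicates 1 and 2 (2.57, 3.88 and 4.55).

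Markers of cells that a dissection of lumbar cord can also hold varied between libraries of 1 group. The mean log2 level of 12 neutrophil genes, relative to the sham mean, ran from -2.13 to 3.28 in sham and from 0.473 to 3.56 in SCI. For 15 Schwann cell genes it ran from -0.808 to 1.48 in sham and from -1.16 to 2.71 in SCI. For 15 sensory ganglion genes the ranges were -0.147 to 0.260 and -0.683 to 4.55, with 3 SCI libraries above 2. For 13 skeletal muscle genes they were -0.238 to 0.342 and -0.428 to 3.90, and for 9 erythrocyte genes -1.16 to 1.39 and -1.29 to 3.91. In the neutrophil, Schwann cell, sensory ganglion and erythrocyte lists no member was separated from sham, and in the skeletal muscle list Des was. Without sham replicate 2, which was high in the neutrophil and Schwann cell lists, 9 of 12 neutrophil, 3 of 15 Schwann cell and 2 of 13 skeletal muscle genes lay above sham. Also above sham were 1 Schwann cell gene without SCI day 7 replicate 1 and 1 sensory ganglion gene without sham replicate 3. The part of these cells in the inflammatory and matrix counts was not tested.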

How the data were processed

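RNA was measured by RNA-seq in 12 libraries of rat lumbar cord, per the labels (total RNA, SMARTER mRNA-Seq kit). The authors deposited 1 table of raw counts per gene with FPKM beside them, per the file headers; its gene identifiers are rat Ensembl identifiers. The submitters' processing notes list the mouse builds GRCm38 and mm10; not given in the sources used here are the aligner, the counter, its handling of strand and the genome aligned to. Reads of a gene and an overlapping antisense gene can therefore not be told apart, and no coordinates from the table are printed.

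The deposited counts were tested with edgeR 4.0.16 in R 4.3.3: filterByExpr over the 4 groups, TMM scaling, 4 group means, and the mean of the SCI days minus sham by the quasi-likelihood F test with 8 residual degrees of freedom. P-values were adjusted over the 18714 genes tested; 4812 were removed by the filter. The common biological coefficient of variation was 0.432. The SE is the size of the log2 difference divided by the square root of F, and n is 3 per group and 9 for SCI. The difference between days was tested with the same fit. Log2 CPM used a prior count of 2. The deposited FPKM served only to derive gene model lengths. Scripts were tested on simulated data. No 2 libraries agreed within sampling noise (the closest pair, sham replicates 1 and 3, had a chi-square of 60.3 per gene).

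Alternatives used DESeq2 1.42.0, limma 3.58.1 voom with sample weights, other scalings and filters, a replicate block, each library or day left out, and SCI day 3 replicates 1 and 3 left out together. List counts with libraries left out were added after the data were seen. The comparison, the 56 gene lists (1100 symbols, 51 of them not analysed here and some others removed by the filter) and the motifs were chosen with earlier results of these data known. The rule for naming took the called genes, up to 4 called members of each list or else its member with the smallest p, and 7 fixed marker genes. Some smallest-p members are not described above, among them Gabra4, Grm3, Vamp2, Mapt and Bhlhe40. The widest-gap genes and further list members were named after their values were seen. Those further members include Gad1, Gabra3, Gria4 and Rab3a, which were separated from sham and were not the smallest-p members of their lists. Single values of 3 genes are not reported here.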

Additional observations from a re-analysis of the deposited data

Results flagged for a closer look

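Among 121 genes examined, 6 had 1 of the 9 SCI libraries far from the other 8, by the share of the SCI range that lies between that library and its nearest neighbour (Dixon's test). Chance alone flags about 1 in 20 groups. SCI day 14 replicate 1 was the lowest library for Lgals3 (share 0.503, 17.3 CPM against 70.0 CPM in the next) and for Mt2A (0.539, 5.83 against 31.1 CPM). SCI day 14 replicate 3 was the lowest for Sc5d (0.552, 53.6 against 87.1 CPM). SCI day 3 replicate 1 was the highest for Vwf (0.561, 796 against 369 CPM). SCI day 3 replicate 3 was the highest for Rarres2, a chemokine-like adipokine (0.545, 53.8 against 19.7 CPM), and the lowest for Bdnf (0.520, 0.504 against 1.66 CPM).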

How the results depend on the processing

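The count of 9 genes over all days was within 1.5 times under 7 alternatives: DESeq2 size factors (6), no TMM factor (7), no filter (6), a 1 CPM filter (9), the 9 SCI libraries as 1 group (8), leaving out SCI day 3 (6), and without SCI day 3 replicates 1 and 3 (6). It was 3 leaving out day 7, 4 leaving out day 14, 1497 with DESeq2 and 5716 with voom. Leaving out 1 library gave 1 to 3341. The separated counts of 1137, 723 and 414 ranged from 1160 to 3740, from 710 to 1943 and from 432 to 1797 with 1 library left out. They were 1841, 1110 and 731 leaving out day 7, and 2786, 1585 and 1201 leaving out day 14. Genes that differed between days numbered 0 in the reported fit, 796 with DESeq2, 1 with voom and 0 to 3236 with 1 library left out. With the replicate number as a block, 5 genes were called over all days, 4 of them among the 9, and 1 between days. The labels share the numbers 1 to 3 across groups. Same-numbered libraries deviated together (r over 0.1) in 6 of 18 pairs, with r from -0.343 to 0.247. Differently numbered libraries did so in 10 of 36 pairs, with r from -0.296 to 0.383, so the numbers were not taken to pair samples. Bdnf was the sole named gene to change sign: 0.0389 without SCI day 3 replicates 1 and 3 (edgeR adjusted p = 0.986). The causes of these shifts were not tested. Depth was at least 63010295 counts in each library; the lowest sham value of Cebpb, 0.356 CPM, is the least precise by counting among the 9 called genes.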

Other observations

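Lipid-handling genes showed both directions: against the 5 synthesis genes below sham, 2 of 13 cholesterol efflux and lipid storage genes lay above it, Ch25h and Plin2. Ch25h, which makes 25-hydroxycholesterol, was at 2.35, 3.83 and 2.80 CPM in sham and from 5.12 to 51.1 CPM in SCI, with log2 differences of 3.53, 2.06 and 2.21 on days 3, 7 and 14 (edgeR adjusted p = 0.12). Plin2, the lipid droplet coat protein, was at 20.04, 18.2 and 22.5 CPM in sham and from 26.7 to 290 CPM in SCI, with 3.08, 2.25 and 1.15 by day. That count was 4 without sham replicate 2.

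Genes often used as references were not all level. Of 13, Actb and B2m lay above sham, and 4 did so without sham replicate 2 or SCI day 14 replicate 1. Rplp0, a ribosomal stalk protein, was at 302, 403 and 303 CPM in sham and from 380 to 1147 CPM in SCI, with 1.38, 0.78 and 0.69 by day (edgeR adjusted p = 0.151). The median of the reference list was 0.136. Of 14 meningeal fibroblast genes, Foxc1 and Foxd1 lay above sham (4 genes without SCI day 7 replicate 1), and 1 lay below (2 without sham replicate 1). In edgeR 4 of them were higher and 2 lower at an unadjusted p under 0.05. Foxc1, a forkhead factor of meninges and pericytes, was at 2.12, 3.66 and 1.78 CPM in sham and from 6.18 to 27.3 CPM in SCI, with 2.5, 1.85 and 2.49 by day. Of 23 nuclear genes of oxidative phosphorylation, Uqcrc1 lay below sham. Uqcrc2, the member with the smallest p, overlapped at 206 CPM in the lowest sham and 219 CPM in the highest SCI library, with -0.55, -0.33 and -0.37 by day (edgeR adjusted p = 0.185). The count below sham was 5 without sham replicate 2, 4 without sham replicate 1, and 2 without SCI day 7 replicate 1 or SCI day 14 replicate 1.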
